A study of Homo sapiens with 12 samples.

Results

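The activin and TGF-beta genes described here are 10 of the 23459 genes in the count table: the ligand subunits INHBA and INHBB, the ligands TGFB1 and TGFB2, the activin antagonists FST and FSTL3, the receptors TGFBR1, TGFBR2 and ACVR1, and the signal transducer SMAD3. They were chosen by gene symbol, with their CPM (gene counts scaled to library size) across the 4 groups and earlier results of these libraries already known. Their levels and differences are therefore given as a description, with no p-value. INHBA had been seen beforehand to have a strongly negative interaction value.

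RNA was sequenced from MCF10A, an immortalized but non-tumorigenic line of human breast epithelium, in which all 12 libraries carried a doxycycline-inducible YAP5SA allele delivered by lentivirus. YAP5SA is a mutant of YAP, a coactivator of transcription, on which the Hippo kinases no longer act. The cells also carried either a vector that overexpresses JUN, a subunit of the transcription factor AP-1, or its empty control, and received doxycycline (Dox, 100 ng/ml) to switch on YAP5SA or the solvent ethanol (EtOH). This gave 4 groups of 3 libraries, named vector EtOH and vector Dox, and JUN EtOH and JUN Dox. Every group is the same line with the same inducible allele, and nothing in the sources says that it was a single clone or names the promoter that drove JUN in these libraries. Dox was not given to cells lacking the allele here, so effects of Dox and of YAP5SA cannot be told apart. The methods call the libraries of a group biological replicates, but do not say how the cultures were separated.

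Total counts ran from 18594867 to 28993487 per library, at which 3 counts correspond to 0.107 to 0.15 CPM. JUN ranged from 35.5 to 55.0 CPM in vector EtOH, from 186 to 194 CPM in vector Dox, and from 1064 to 1399 CPM in the JUN vector libraries. YAP1, whose reads can come from the cells' own gene or from the inducible allele, ranged from 171 to 191 CPM in vector EtOH and from 216 to 273 CPM in vector Dox. It ranged from 211 to 249 CPM in JUN EtOH and from 208 to 365 CPM in JUN Dox, so the latter pair of groups overlapped. Summed over 8 mammary epithelial markers the level was 8157 to 9498 CPM in the EtOH libraries and 4575 to 7257 CPM in the Dox libraries, a difference that moves with every comparison of Dox and EtOH below and whose part in them was not tested. Summed over 10 markers of other cell types it was 13.4 to 31.8 CPM, with CD3E (T cells) and ADIPOQ (fat cells) at 0 in every library and PTPRC (leukocytes), CDH5 (endothelium) and COL3A1 (fibroblasts) at 0.15 CPM or less. Of the other 5, LUM (fibroblasts) was 0.456 to 1.25 CPM in the vector libraries and 3.85 to 6.83 CPM in the JUN vector libraries, 8.53-fold higher with JUN without induction and 5.86-fold higher with it. PECAM1 (endothelium) was 1.48 to 1.95 CPM in vector EtOH, 0 to 0.18 CPM in vector Dox, 0.308 to 0.59 CPM in JUN EtOH and 0.0355 to 0.173 CPM in JUN Dox. COL1A1 (1.30 to 3.96 CPM), PDGFRB (0 to 0.718 CPM) and MYH11 (11.2 to 20.5 CPM) were, with PECAM1, called lower on induction in both vector and JUN cells. PECAM1 was also called lower with JUN without induction. LUM thus moves with the comparisons of JUN, PECAM1 with Dox and with JUN, and the other 3 with Dox, and their part in the results was not tested. In JUN Dox replicates 1 and 3, the deviation of genes from their group mean correlated with transcript GC content across 14247 genes, at r = -0.36 and 0.36 (a description, since genes of a library share its preparation). The results that change without this pair of libraries are named below, as far as they were refitted. Refitted were the members, the antisense gene INHBA-AS1 and the numbers of genes called. Other pathway genes were refitted only in a comparison where they were among the 3 highest or 3 lowest called. Their values in the remaining comparisons were not checked in this way.

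As background, INHBA encodes the inhibin beta A chain, a pair of which forms activin A, and INHBB encodes the beta B chain of activin B. Activins and the TGF-beta ligands bind a type II receptor that recruits and phosphorylates a type I receptor, which then phosphorylates SMAD2 and SMAD3, and these enter the nucleus with SMAD4. Follistatin (FST) and follistatin-like 3 (FSTL3) bind activin outside the cell and block it, whereas TGF-beta is secreted in a latent form that must be freed from the matrix. In mammary epithelium TGF-beta is known as a growth inhibitor and as an inducer of epithelial-mesenchymal transition.

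The 250 bases before the annotated start are printed for the 3 members whose groups or motif matches are taken up below: INHBA and TGFB2, the pair of ligand genes that YAP5SA and JUN moved most, and FST, the only member whose first-listed window holds an AP-1 motif. They are RefSeq sequences of GRCh38.p14, read 5′ to 3′ on the gene's strand. The windows are chr7:41703091-41703340 (minus strand) for INHBA, chr1:218345086-218345335 (plus strand) for TGFB2 and chr5:53480379-53480628 (plus strand) for FST. Capitals mark a match to the AP-1 motif TGANTCA or the TEAD motif GGAATG, TEAD proteins being the DNA-binding partners of YAP, searched on both strands.
INHBA: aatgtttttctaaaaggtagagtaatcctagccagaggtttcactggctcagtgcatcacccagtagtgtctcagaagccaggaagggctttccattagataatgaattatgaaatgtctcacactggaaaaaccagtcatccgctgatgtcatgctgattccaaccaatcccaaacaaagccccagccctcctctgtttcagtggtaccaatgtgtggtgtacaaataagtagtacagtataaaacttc
TGFB2: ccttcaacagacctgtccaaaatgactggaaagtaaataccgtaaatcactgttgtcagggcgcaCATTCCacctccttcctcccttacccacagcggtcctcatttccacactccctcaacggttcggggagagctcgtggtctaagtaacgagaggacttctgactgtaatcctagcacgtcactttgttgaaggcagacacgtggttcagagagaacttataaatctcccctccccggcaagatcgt
FST: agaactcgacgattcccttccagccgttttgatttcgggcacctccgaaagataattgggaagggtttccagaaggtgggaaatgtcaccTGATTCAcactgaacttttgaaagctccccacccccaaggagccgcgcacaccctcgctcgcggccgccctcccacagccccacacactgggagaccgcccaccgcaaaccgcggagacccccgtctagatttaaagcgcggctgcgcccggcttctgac
The INHBA window holds neither motif. The TGFB2 window holds CATTCC, the TEAD motif on the opposite strand, from position -185 to -180 relative to the start, and the FST window holds TGATTCA from -160 to -154. In the first-listed window of each gene, these are the matches among the 10 members, 1 of 10 for each motif, beside 6.6% of all 27305 RefSeq promoter windows for AP-1 and 11.9% for TEAD. Windows at other annotated starts of TGFBR1, ACVR1 and SMAD3 also hold a match. A match is a match of letters, and its absence says nothing of other forms of site in the same window or of sites farther away.

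**Figure D1:**
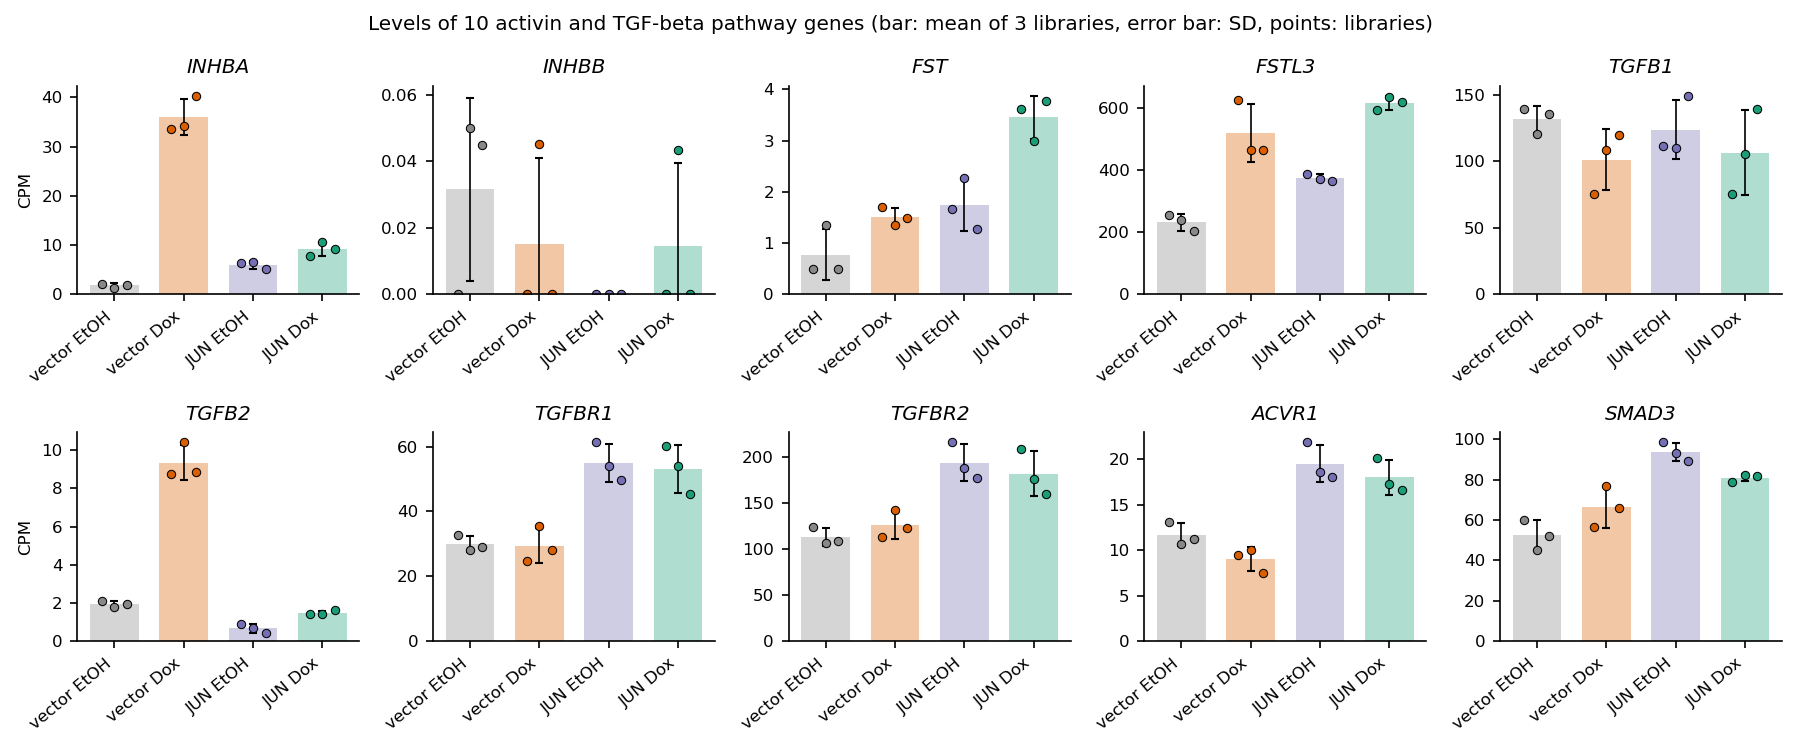
CPM (linear axis from 0, scaled per gene) of the 10 genes by group, points are libraries, bars the mean of 3 and error bars the SD. INHBA and TGFB2 stand highest in vector Dox, TGFBR1, TGFBR2 and ACVR1 stand higher in both JUN groups, and INHBB stays at or below 0.0499 CPM.

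INHBA was the member that changed most. YAP5SA raised it 19.1-fold in vector cells, JUN alone raised it 3.19-fold, and with JUN present YAP5SA raised it 1.54-fold, so that under induction JUN cells had 3.91-fold less INHBA than vector cells. The gene lies on the minus strand at chr7:41706766-41745432 (GRCh37). Its levels were 2.21, 1.40 and 1.97 CPM in vector EtOH and 33.7, 34.2 and 40.3 CPM in vector Dox. In JUN cells they were 6.29, 6.62 and 5.07 CPM with EtOH and 7.73, 10.6 and 9.24 CPM with Dox. In order the groups were vector EtOH, JUN EtOH, JUN Dox and vector Dox, and no neighbouring pair overlapped, although the gap between the highest JUN EtOH library and the lowest JUN Dox library was the narrowest. In these bulk libraries a change in transcripts per cell and a change in the share of cells that express a gene cannot be told apart.

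On the log2 scale the INHBA differences were 4.26 ± 0.18 (SE) for YAP5SA in vector cells and 0.62 ± 0.16 for YAP5SA in JUN cells. They were 1.67 ± 0.19 for the JUN vector in EtOH and -1.97 ± 0.15 for the JUN vector in Dox. The interaction, which subtracts the log2 induction of vector cells from that of JUN cells, was -3.64 ± 0.24. It is the value INHBA was known for. Had both single effects simply added on the log2 scale, JUN Dox would have stood 5.93 above vector EtOH, and it stood 2.29 above it. The induction in JUN cells passed the threshold (an adjusted p under 0.05 over 14775 genes, edgeR) with all libraries but not without JUN EtOH replicate 3, at 0.51, or without JUN Dox replicate 2, at 0.50.

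INHBA-AS1, a long noncoding RNA gene on the opposite strand, shares 248 exon bases with INHBA and had the same order of groups, with an interaction of -3.86 ± 0.32, below that of INHBA. Its levels were 0.494, 0.399 and 0.359 CPM in vector EtOH and 9.51, 9.55 and 11.5 CPM in vector Dox. With JUN they were 1.63, 1.81 and 1.55 CPM with EtOH and 2.06, 3.03 and 3.06 CPM with Dox. Its induction in JUN cells was 0.71 ± 0.20 and was called with all libraries. The call was lost without JUN EtOH replicate 1 (0.70) or 3 (0.67) and without JUN Dox replicate 2 (0.635) or 3 (0.62). It was also lost with only the compared libraries (0.71) and without both JUN Dox replicates 1 and 3, at 0.85. Counts assigned to INHBA-AS1 were 0.182 to 0.331 of those assigned to INHBA in every library. The sources used here give neither the annotation nor any use of strand, so reads of the 2 genes cannot be told apart where they overlap, and both values are uncertain to that extent.

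The genes whose group profile was most like that of INHBA were looked for among 11403 genes averaging 5 CPM or more, by the root mean square difference of the 4 centred group means of log2 CPM. PTX3, which encodes the soluble pattern recognition protein pentraxin 3, was nearest at 0.36. VEPH1 at 0.55, GADD45B (a stress-inducible gene) at 0.57, CEMIP2 (a transmembrane hyaluronidase) at 0.59 and TUFT1 at 0.72 followed. PTX3 ranged from 8.21 to 11.4 CPM in vector EtOH, 89.3 to 115 CPM in vector Dox, 18.3 to 25.6 CPM in JUN EtOH and 41.7 to 44.2 CPM in JUN Dox. As with INHBA, its groups did not overlap and JUN Dox fell between JUN EtOH and vector Dox. With the minimum lowered to 1 CPM, INHBA-AS1 came first at 0.07, and the next 4 names were PTX3, VEPH1, GADD45B and CEMIP2.

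**Figure D2:**
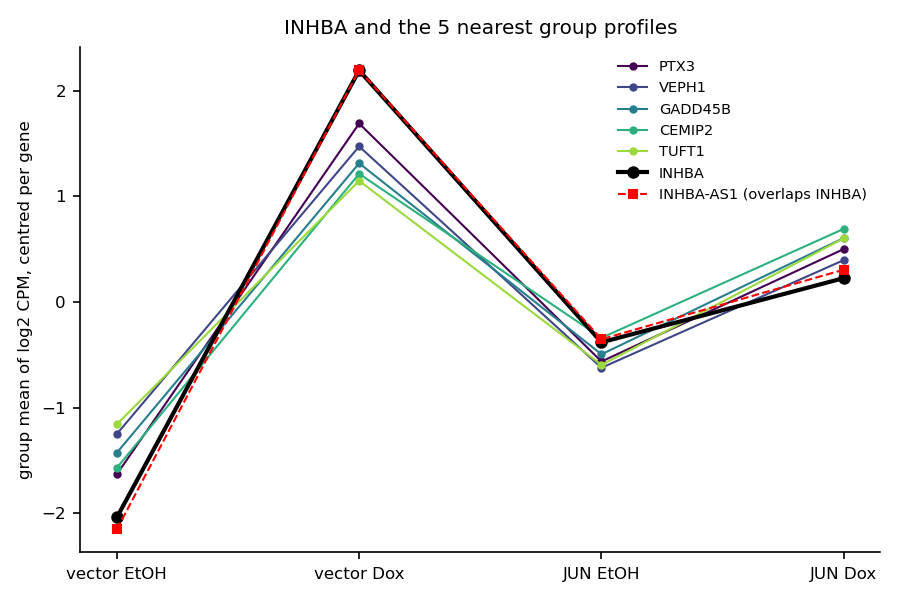
Group means of log2 CPM, centred on each gene's own mean, for INHBA, its antisense neighbour INHBA-AS1 and the 5 genes of at least 5 CPM with the nearest profiles, across the 4 groups on the horizontal axis. INHBA runs from -2.04 in vector EtOH to 2.19 in vector Dox, and to -0.38 and 0.23 in JUN EtOH and JUN Dox.

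INHBB, the activin B chain at chr2:121103712-121109379 (GRCh37), had 0 or 1 count in every library. No group rose above the level of 3 counts, so a difference was not detectable at this depth, and INHBB is the member that did not pass the count filter. The remaining 9 passed it.

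TGFB2 also rose on induction, but in contrast to INHBA it was lower with JUN in both states. The gene, at chr1:218518678-218617961 (GRCh37), encodes a TGF-beta ligand. Its levels were 2.09, 1.80 and 1.93 CPM in vector EtOH and 8.76, 10.4 and 8.88 CPM in vector Dox. In JUN EtOH they were 0.880, 0.674 and 0.422 CPM and in JUN Dox 1.40, 1.43 and 1.60 CPM. The groups lay in the order JUN EtOH, JUN Dox, vector EtOH, vector Dox with no overlap, so induced JUN cells remained below uninduced vector cells. Induction gave a 4.80-fold higher level in vector cells (log2 2.26 ± 0.19, SE) and a 2.23-fold higher level in JUN cells (1.16 ± 0.25). JUN gave a 2.92-fold lower level without induction (-1.55 ± 0.24) and a 6.29-fold lower level with it (-2.65 ± 0.20). The interaction was -1.11 ± 0.32 and was not called. Without JUN Dox replicates 1 and 3, the induction in JUN cells was 1.09 and was no longer called. The antisense gene TGFB2-AS1 shares 701 exon bases with TGFB2 and had at most 5 counts in a library.

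TGFB1, the ligand that is most abundant in this set, had no difference that passed the threshold. It lies at chr19:41807492-41859827 (GRCh37), minus strand. Its levels were 139, 120 and 136 CPM in vector EtOH, 75.6, 108 and 120 CPM in vector Dox, 112, 110 and 149 CPM in JUN EtOH and 75.3, 105 and 139 CPM in JUN Dox. Induction in vector cells gave -0.38 ± 0.20 (log2, SE), with the groups just apart, 119.8 CPM being the highest vector Dox library and 120.3 CPM the lowest vector EtOH library. The other pairs of groups overlapped, with differences from -0.21 to 0.08. TGFB1 was not called in any comparison by edgeR, nor by DESeq2 or any other alternative tried. TMEM91, CCDC97 and HNRNPUL1 lie on the opposite strand and overlap its span. In the annotation used here HNRNPUL1 shares 215 exon bases with TGFB1, and TMEM91 and CCDC97 share 0. TMEM91 held 0.711 to 0.774 of the TGFB1 count in every library. The annotation used for counting is not given, so the TGFB1 level is uncertain where reads could have been assigned to TGFB1 and another gene.

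Expressed per kilobase of exon, which allows levels to be compared between genes, TGFB1 exceeded TGFB2 in every library. The ratio averaged 126 in vector EtOH (124 to 130), 20.1 in vector Dox (16.0 to 25.0), 398 in JUN EtOH (235 to 655) and 133 in JUN Dox (99.4 to 162). TGFB2 thus made up the largest part of the pair in vector Dox, where it was still the minor transcript.

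The activin antagonists were higher with either factor and highest with both. FSTL3, at chr19:676392-683392 (GRCh37), was the most abundant member. Its levels were 255, 238 and 203 CPM in vector EtOH, 626, 465 and 465 CPM in vector Dox, 388, 372 and 366 CPM in JUN EtOH and 592, 637 and 620 CPM in JUN Dox. Vector EtOH and JUN EtOH each stood apart from every other group, while vector Dox and JUN Dox overlapped because vector Dox replicate 1 lay at the level of the JUN Dox libraries. FSTL3 was 2.24-fold higher on induction in vector cells (log2 1.16 ± 0.13, SE), 1.64-fold higher on induction in JUN cells (0.72 ± 0.13) and 1.62-fold higher with JUN alone (0.69 ± 0.13). JUN with induction gave 0.25 ± 0.13, not called, which became 0.41 and called without vector Dox replicate 1. The interaction was -0.45 ± 0.18, not called.

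FST, at chr5:52776456-52782964 (GRCh37), was present at much lower counts. Its levels were 0.494, 1.35 and 0.494 CPM in vector EtOH, 1.70, 1.35 and 1.49 CPM in vector Dox, 1.67, 2.28 and 1.27 CPM in JUN EtOH and 3.61, 2.98 and 3.77 CPM in JUN Dox. JUN Dox was above every other group, whereas the other 3 groups lay close together, vector EtOH replicate 2 lying just under the lowest vector Dox library and within the range of JUN EtOH. The log2 differences were 0.99 ± 0.36 (SE) and 0.98 ± 0.30 for induction in vector and JUN cells, and 1.20 ± 0.36 and 1.19 ± 0.31 for JUN without and with induction, with an interaction of -0.01 ± 0.38. The call for induction in vector cells was lost when any of 9 of the 12 libraries was left out, with values from 0.74 without vector EtOH replicate 1 to 1.60 without vector EtOH replicate 2, the latter still called along with those without JUN EtOH replicate 2 or 3. It was also lost without both JUN Dox replicates 1 and 3, at 0.98. The call for JUN without induction was lost without vector EtOH replicate 1 (0.94), vector EtOH replicate 3 (0.98) or JUN EtOH replicate 2 (0.96), and that for induction in JUN cells without JUN EtOH replicate 1 (0.95) or 3 (0.81) or JUN Dox replicate 1 (0.95) or 3 (0.91). Without both JUN Dox replicates 1 and 3 the induction in JUN cells was 0.76, and JUN with induction 0.98, neither of them called.

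Per kilobase of exon, FSTL3 exceeded INHBA in every library, by an amount that depended on the group. The ratio averaged 354 in vector EtOH (281 to 466), 39.9 in vector Dox (31.6 to 50.8), 173 in JUN EtOH (154 to 197) and 185 in JUN Dox (164 to 209). FST per kilobase was 0.675 to 2.90 of INHBA in vector EtOH and 0.111 to 0.152 in vector Dox. It was 0.753 to 1.04 of INHBA in JUN EtOH and 0.844 to 1.41 in JUN Dox. For both antagonists the vector Dox libraries had the lowest ratios, below every library of the other groups. These are ratios of transcripts and not of proteins, and they use exon lengths of an annotation (GENCODE v44lift37) that may not be the one used for counting.

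The 3 receptors among the members were higher with the JUN vector whether or not YAP5SA was induced. TGFBR1, the type I TGF-beta receptor, lies at chr9:101866320-101916474 (GRCh37). Its levels were 32.7, 28.1 and 28.9 CPM in vector EtOH, 24.8, 35.3 and 28.0 CPM in vector Dox, 61.3, 54.1 and 49.6 CPM in JUN EtOH and 60.1, 53.9 and 45.2 CPM in JUN Dox. All JUN libraries were above all vector libraries, while Dox and EtOH overlapped within vector cells and within JUN cells. JUN gave a 1.84-fold higher level without induction (log2 0.88 ± 0.14, SE) and a 1.80-fold higher level with it (0.85 ± 0.14). Induction gave -0.03 ± 0.14 in vector cells and -0.05 ± 0.14 in JUN cells.

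TGFBR2, the type II TGF-beta receptor at chr3:30648093-30735634 (GRCh37), had the same arrangement. Its levels were 124, 106 and 108 CPM in vector EtOH, 113, 142 and 122 CPM in vector Dox, 215, 188 and 176 CPM in JUN EtOH and 208, 176 and 160 CPM in JUN Dox. Here too the JUN libraries did not overlap the vector libraries. JUN gave a 1.72-fold higher level without induction (0.78 ± 0.12) and a 1.44-fold higher level with it (0.53 ± 0.12), the latter 0.49 and no longer called without JUN Dox replicates 1 and 3. Induction gave 0.16 ± 0.12 in vector cells and -0.09 ± 0.12 in JUN cells. Per kilobase of exon, TGFBR2 stood 3.81 to 5.30 times above TGFBR1 in the 12 libraries.

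ACVR1, also called ALK2, is a type I receptor best known for BMP signals that also binds activin A. It lies at chr2:158592763-158732842 (GRCh37), minus strand. Its levels were 13.1, 10.7 and 11.3 CPM in vector EtOH, 9.51, 10.1 and 7.48 CPM in vector Dox, 21.9, 18.6 and 18.1 CPM in JUN EtOH and 20.2, 17.3 and 16.6 CPM in JUN Dox. JUN libraries were again above all vector libraries, with a log2 difference of 0.74 ± 0.14 (SE) without induction and 1.00 ± 0.14 with it. On induction in vector cells the groups did not overlap and the difference was -0.38 ± 0.14, which was not called with all libraries but was called without vector Dox replicate 2, at -0.47, and without JUN Dox replicate 1 or without both JUN Dox replicates 1 and 3, each at -0.40, as well as by DESeq2. In JUN cells it was -0.12 ± 0.14.

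SMAD3, at chr15:67356101-67487511 (GRCh37), was higher in JUN cells before induction, and its differences on induction had opposite signs in vector and JUN cells and were close to the spread. Its levels were 60.1, 44.9 and 52.1 CPM in vector EtOH, 56.3, 76.6 and 66.1 CPM in vector Dox, 98.4, 93.3 and 89.2 CPM in JUN EtOH and 78.8, 82.3 and 81.8 CPM in JUN Dox. Every JUN library was above every vector library. Within vector cells Dox and EtOH overlapped, and within JUN cells the Dox libraries were below the EtOH libraries. The log2 differences were 0.84 ± 0.12 (SE) for JUN without induction, 0.29 ± 0.12 for JUN with induction, 0.34 ± 0.12 for induction in vector cells and -0.21 ± 0.12 for induction in JUN cells. The interaction was -0.55 ± 0.17, not called, and became -0.65 and called without vector Dox replicate 1. The call for induction in vector cells was lost when any of 9 of the 12 libraries was left out, with values from 0.22 without vector Dox replicate 2 to 0.45 without vector EtOH replicate 1, and also without both JUN Dox replicates 1 and 3, at 0.32. JUN with induction was not called with all libraries and was called without vector Dox replicate 2, at 0.41.

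**Figure D3:**
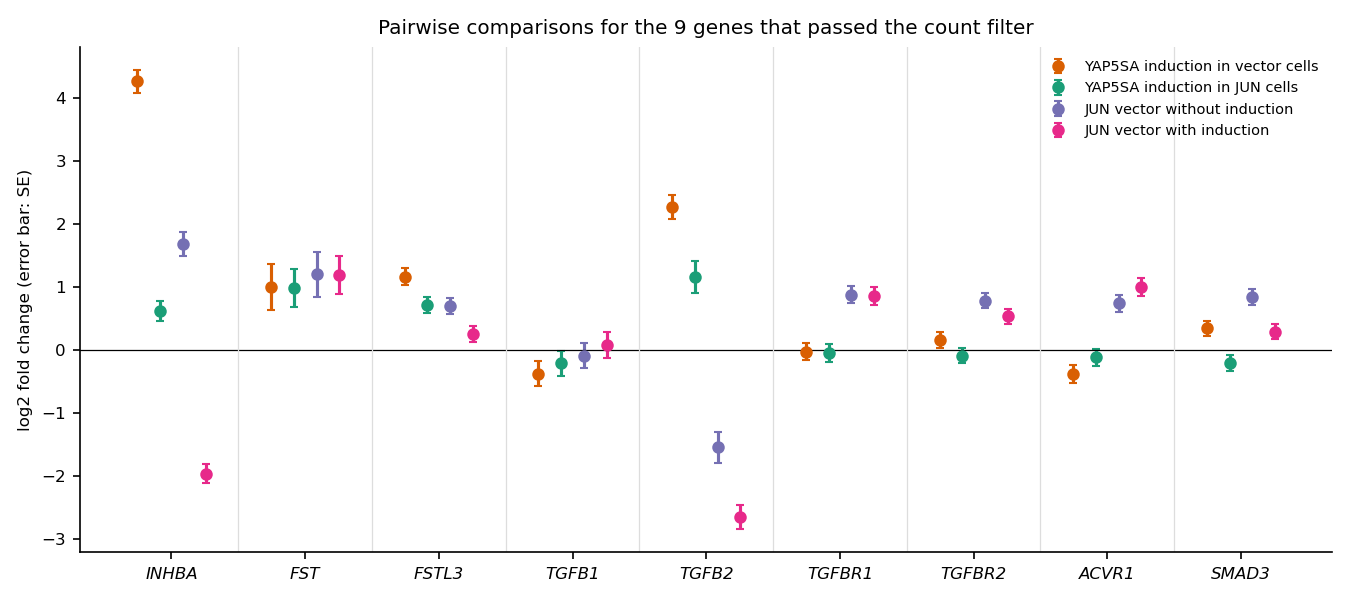
Log2 fold change with its SE (error bars) in the 4 pairwise comparisons for the 9 members that passed the count filter. INHBA and TGFB2 lie above 0 on induction and below 0 for JUN with induction, while TGFBR1, TGFBR2 and ACVR1 lie above 0 for JUN in both states, from 0.53 to 1.00.

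Counted over the 9 members that passed the filter, 5 were called on YAP5SA induction in vector cells, all of them higher (INHBA, FST, FSTL3, TGFB2 and SMAD3), where 30.1% of all genes tested were called, 15.6% higher and 14.4% lower. For JUN without induction 8 were called, 7 higher and TGFB2 lower, beside 39.0% of all genes, 20.1% higher and 18.9% lower. Among JUN cells, induction gave 4 calls, all higher (INHBA, FST, FSTL3 and TGFB2), beside 21.4% of all genes, 11.2% higher and 10.3% lower. JUN with induction gave 6 calls, of which FST, TGFBR1, TGFBR2 and ACVR1 were higher and INHBA and TGFB2 lower, beside 35.6% of all genes, 18.4% higher and 17.2% lower. The interaction was called for INHBA, beside 1.12% of all genes, 0.291% higher and 0.826% lower. The rule used these levels, so nothing is read from the counts. The comparisons share libraries, since each group enters a pair of them.

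How both factors combined is given here as a description. The interaction was called for INHBA, which was known for it, and for no other member. For INHBA the JUN Dox level fell short of the sum of the separate effects (5.93 against 2.29 on the log2 scale over vector EtOH). For FST the sum was 2.19 and the observed difference 2.18, for TGFBR1 0.85 and 0.82, for TGFBR2 0.94 and 0.69, and for ACVR1 0.36 and 0.62. FSTL3 had a sum of 1.86 and an observed difference of 1.41, and SMAD3 1.18 and 0.63. For TGFB2 the effects had opposite signs, with a sum of 0.72 and an observed difference of -0.39.

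**Figure D4:**
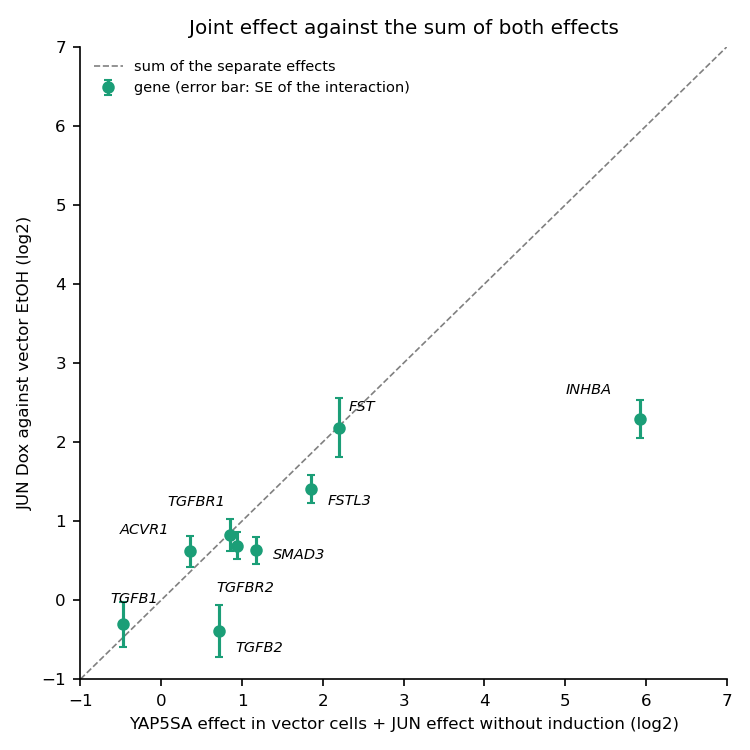
Log2 difference of JUN Dox from vector EtOH (vertical axis) against the sum of the YAP5SA effect in vector cells and the JUN effect without induction (horizontal axis) for 9 members, with the SE of the interaction as error bar; on the dashed line both are equal. INHBA lies at 5.93 and 2.29, far below the line, and FST and TGFBR1 lie on it within their SE.

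Beyond the 10 members, 63 other genes of the pathway were listed by role, with earlier results of these data known. Of these, 49 passed the count filter. On YAP5SA induction in vector cells 25 of the 49 were called, 9 higher and 16 lower, with a median log2 change of -0.15 beside 0.01 over all genes, of which 30.1% were called. With JUN present, 20 were called on induction, 6 of them higher and 14 lower, and the median was -0.15, beside 21.4% of all genes. For JUN the counts were 25 without induction (14 higher and 11 lower, median 0.09), beside 39.0% of all genes, and 26 with induction (14 higher and 12 lower, median 0.05), beside 35.6%. Without JUN Dox replicates 1 and 3 the count on induction in JUN cells was 11, while the calls over all genes fell from 3168 of 14775 to 1150 of 15331.

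Of 10 genes tested that store or free latent TGF-beta, 7 were called on induction in vector cells, 1 of them higher and 6 lower, beside 30.1% of all genes. THBS1, encoding thrombospondin 1, an activator of latent TGF-beta and a known YAP target, rose 12.4-fold in vector cells (log2 3.63 ± 0.16, edgeR adjusted p = 9.81e-10) and 3.69-fold in JUN cells (1.89 ± 0.15, adjusted p = 8.84e-07). JUN lowered THBS1 3.97-fold without induction (adjusted p = 2.35e-07) and 13.3-fold with it (adjusted p = 7.4e-10). ITGB6, the beta subunit of an integrin that frees TGF-beta, fell by 1.63 on the log2 scale in vector cells (adjusted p = 1.89e-05) and by 1.09 in JUN cells (adjusted p = 0.000582). With JUN it rose by 0.76 without induction (adjusted p = 0.004) and by 1.31 with it (adjusted p = 0.000138). ITGB8, from an integrin of the same function, rose by 1.95 with JUN alone (adjusted p = 3.58e-05) and by 0.71 with JUN under induction (adjusted p = 0.0434). On induction it fell by 0.90 in vector cells (adjusted p = 0.016) and by 2.13 in JUN cells (adjusted p = 3.17e-05). The ITGB8 interaction was -1.24 ± 0.36 and was not called (adjusted p = 0.141).

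The latent TGF-beta binding proteins LTBP1, LTBP3 and LTBP4 fell on induction, whereas JUN moved them in different directions. LTBP1 ranged from 84.2 to 105 CPM in vector EtOH, 33.5 to 41.1 CPM in vector Dox, 268 to 315 CPM in JUN EtOH and 202 to 220 CPM in JUN Dox. No groups overlapped, and LTBP1 was lowest where INHBA, TGFB2 and THBS1 were highest. It fell by 1.28 on induction in vector cells (adjusted p = 1.03e-06) and was 5.48-fold higher with JUN under induction (log2 2.45 ± 0.12, adjusted p = 1.95e-09). LTBP1 also fell by 0.44 on induction in JUN cells (adjusted p = 0.0109) and rose by 1.61 with JUN alone (adjusted p = 9.87e-08). LTBP3 fell by 0.92 on induction in vector cells (adjusted p = 6.68e-05) and by 0.48 in JUN cells (adjusted p = 0.0139), and with JUN it fell by 1.37 without induction (adjusted p = 1.46e-06) and by 0.93 with it (adjusted p = 5.97e-05). LTBP4 and LTBP2 are named after their values were seen. LTBP4 fell by 0.87 in vector cells (adjusted p = 5.16e-05) and by 0.44 in JUN cells (adjusted p = 0.0129) on induction and by 0.40 with JUN alone (adjusted p = 0.0131), and it stood at 0.02 for JUN with induction, not called. LTBP2 was not called in any comparison, at 0.10 on induction in vector cells and -0.10 in JUN cells.

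Among 16 other SMADs and their cofactors, 7 were called on induction in vector cells, 3 higher and 4 lower, beside 30.1% of all genes. On induction in JUN cells 5 were called, 2 higher and 3 lower, beside 21.4% of all genes. JUN gave 9 calls without induction (5 higher and 4 lower) and 8 with it (4 higher and 4 lower), beside 39.0% and 35.6%. SMAD7, named after its values were seen, fell on induction by 0.64 in vector cells (edgeR adjusted p = 0.00194) and by 0.93 in JUN cells (adjusted p = 0.000251). With JUN it fell by 0.45 without induction (adjusted p = 0.014) and by 0.74 with it (adjusted p = 0.00092). SMURF2, a ubiquitin ligase that targets SMADs and receptors, rose 2.97-fold on induction in vector cells (log2 1.57 ± 0.11, adjusted p = 8.31e-08) and 4.06-fold in JUN cells (2.02 ± 0.11, adjusted p = 2.93e-08), with an interaction of 0.45 ± 0.15 that was not called (adjusted p = 0.256). Among 6 other receptors and co-receptors, 1 was called lower on induction in vector cells and 1 lower on induction in JUN cells. Of all genes, 14.4% and 10.3% were called lower in these comparisons, and for JUN without and with induction 39.0% and 35.6% were called in either direction. For JUN 0 of the 6 were called by edgeR, either without induction (median 0.04, values from -0.31 to 0.38, 0 at an unadjusted p under 0.05) or with it (median 0.10, values from -0.37 to 0.35, 2 at an unadjusted p under 0.05), and DESeq2 also called 0 in both. Of 3 other ligands tested, 1 was called, higher, in each pairwise comparison. The gene called on induction (LEFTY1) was not the one called for JUN (GDF11). The shares of all genes called higher were 15.6% and 11.2% on induction in vector and JUN cells, and 20.1% and 18.4% for JUN without and with induction.

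Target genes of TGF-beta and activin did not move as a block. Of 18 tested, 11 were called on induction in vector cells, 4 higher and 7 lower, beside 30.1% of all genes. On induction in JUN cells 8 were called, 2 higher and 6 lower, beside 21.4% of all genes. JUN gave 9 calls without induction (5 higher and 4 lower) and 12 with it (6 higher and 6 lower), beside 39.0% and 35.6% of all genes. CCN2, a matrix protein gene that is also a classic YAP target, rose 11.1-fold in vector cells (log2 3.47 ± 0.16, adjusted p = 1.22e-09) and 9.76-fold in JUN cells (3.29 ± 0.16, adjusted p = 1.17e-08), and TPM1, encoding a tropomyosin, rose 3.26-fold in vector cells (adjusted p = 3.34e-08). ID1, an inhibitor of basic helix-loop-helix factors that BMP signals induce, fell by 1.72 in vector cells (adjusted p = 8.08e-07) and by 1.75 in JUN cells (adjusted p = 1.32e-06). With JUN alone, FN1 (fibronectin) rose 7.82-fold (log2 2.97 ± 0.22, adjusted p = 1.45e-07) and SNAI2 (a transcription factor of epithelial-mesenchymal transition) 6.69-fold (2.74 ± 0.15, adjusted p = 6.75e-09). Under induction JUN raised FN1 6.92-fold (adjusted p = 2.52e-07) and raised SNAI2 by 3.46 ± 0.16 on the log2 scale (adjusted p = 9.44e-10).

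JUN also lowered some genes of this list. ID3, a relative of ID1, fell by 1.40 without induction (adjusted p = 6.24e-06) and by 1.80 with it (adjusted p = 4.95e-07). PMEPA1 encodes an inhibitor of SMAD signalling and is itself induced by TGF-beta. With JUN it fell by 0.99 without induction (adjusted p = 0.000117) and by 1.44 with it (adjusted p = 3.64e-06). TPM1 fell by 1.43 with JUN under induction (adjusted p = 1.68e-07) and stood at -0.23 without it, not called. CCN2 was also lower with JUN, by 1.19 without induction (adjusted p = 6.17e-05) and by 1.37 with it (adjusted p = 4.85e-06). CCN2 is known as a target of YAP as well as of TGF-beta, so its direction does not report on either pathway alone.

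**Figure D5:**
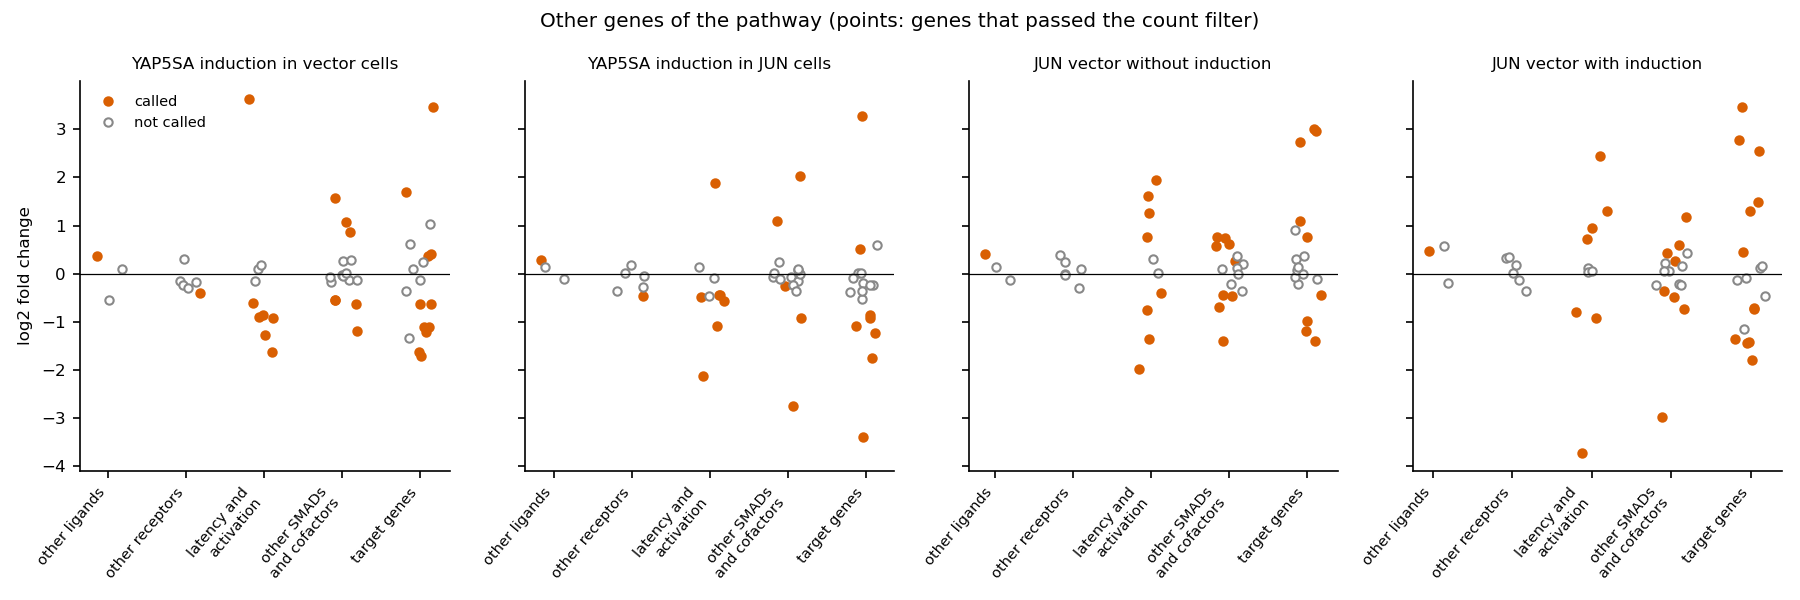
Log2 fold change of the other pathway genes that passed the count filter in the 4 pairwise comparisons, grouped by role on the horizontal axis; filled points were called by edgeR and open points were not. Called genes lie on both sides of 0 among latency genes, SMADs and target genes, with THBS1 at 3.63 on induction in vector cells and at -3.74 for JUN with induction.

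For 4 of the 49 genes the interaction was called, the induction itself differing between JUN cells and vector cells, beside 1.12% of all genes. The induction of THBS1 was 1.75 lower on the log2 scale in JUN cells (interaction -1.75 ± 0.21, edgeR adjusted p = 0.000401), that of TPM1 was lower by the same measure (-1.20 ± 0.15, adjusted p = 0.000586), and TGIF1, a SMAD corepressor, had an interaction of -1.13 ± 0.12 (adjusted p = 0.000101). LTBP1 had an interaction of 0.84 ± 0.16 (adjusted p = 0.0151), as its fall on induction was smaller in JUN cells. The LTBP1 call was lost without vector EtOH replicate 1 (0.75), without JUN EtOH replicate 2 (0.81) and without JUN Dox replicates 1 and 3 (0.83). INHBA, at -3.64, lay below all 4.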

How the data were processed

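RNA from MCF10A cells was sequenced as poly(A) libraries, 3 per group. The table the authors deposited holds raw read counts for each Entrez gene, which per the methods and the submitters' processing notes were made by trimming with Cutadapt (version 4.2 in the notes), alignment to hg19 with Bowtie2 (2.3.5.1 in the notes) and countOverlaps. Bowtie2 does not split reads across introns, so reads over exon junctions are largely lost. The gene annotation and strand setting are not given in the sources used here.

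Symbols came from RefSeq (23308 of 23459 rows), and positions (GRCh37) and exon lengths from GENCODE v44lift37 (22209 rows). CPM used TMM-scaled library sizes. All 12 libraries entered a single quasi-likelihood fit in edgeR 4.0.16 (R 4.3.3, robust dispersion, group means, 8 residual degrees of freedom) on the 14775 genes that passed filterByExpr (count of at least 10, total of at least 15), at a biological coefficient of variation of 12.5%. Benjamini-Hochberg adjustment covered every gene tested, and a gene was called under 0.05. SE is the log2 change divided by the square root of F. Through the fitted dispersion the SE includes variation between libraries, whereas the 3-count level covers counting error only.

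The members and gene lists were chosen with earlier results of these data known. Named were all members, genes overlapping them, the 3 highest and 3 lowest called other pathway genes of at least 5 CPM per comparison, and the 5 profiles nearest to INHBA. Alternatives were RLE and upper-quartile factors, DESeq2 1.42.0, other count filters, only the compared libraries, the replicate number as a block, and each library left out. Leaving out JUN Dox replicates 1 and 3 was chosen after seeing the data. A withheld gene is not reported here. The fitting code was tested on simulated data.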

Additional observations from a re-analysis of the deposited data

Results flagged for a closer look

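The induction by YAP5SA differed between JUN cells and vector cells for INHBA and 4 of the 49 other pathway genes tested, each by the interaction term. Over all genes 1.12% were called in the interaction. INHBA had an interaction of -3.64 on the log2 scale, which is a description because INHBA was known for this value. The list of the other genes was also drawn up with earlier results of these data known. Their p-values, by edgeR and adjusted over all genes, are therefore descriptive too. The genes were THBS1 at -1.75 (adjusted p = 0.000401), TPM1 at -1.20 (adjusted p = 0.000586), TGIF1 at -1.13 (adjusted p = 0.000101) and LTBP1 at 0.84 (adjusted p = 0.0151). TGIF1 went in opposite directions, from 31.6 to 33.9 CPM in vector EtOH up to 56.9 to 61.7 CPM in vector Dox, and from 52.9 to 56.7 CPM in JUN EtOH down to 45.2 to 47.0 CPM in JUN Dox. Its Dox and EtOH libraries did not overlap in vector cells or in JUN cells. Negative values were also found for INHBA-AS1 (-3.86), which overlaps INHBA, and for the 5 genes chosen for a profile like that of INHBA, namely PTX3 (-2.28), CEMIP2 (-1.76), GADD45B (-1.74), VEPH1 (-1.72) and TUFT1 (-1.10). That choice fixes their direction, so they are given as a description. JUN itself, which the vector supplies in JUN cells, had a value of -2.03.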

How the results depend on the processing

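The calls on YAP5SA induction in vector cells depended most on the settings, being 5 members with TMM factors and 3 with RLE factors, with a minimum of 5 CPM (7 members tested) or with only the compared libraries. With RLE factors and with only the compared libraries the calls lost were those of FST and SMAD3. The 5 CPM minimum leaves FST and TGFB2 untested, and under it SMAD3 was not called and ACVR1 was called, with a lower level in vector Dox. With JUN present, 4 members were called on induction, and 2 with the 5 CPM minimum or without JUN Dox replicates 1 and 3, where the other pathway genes called were 11 in place of 20 and the calls over all genes 1150 in place of 3168. The other pathway genes called in the interaction were 7 with DESeq2 and 3 without JUN Dox replicates 1 and 3, in place of 4. The interaction calls over all genes were 358 and 68 in these settings, in place of 165. Leaving out each library in turn gave 3 to 4 members called on induction in vector cells, 2 to 4 on induction in JUN cells and 1 to 2 in the interaction, and 3 to 4 other pathway genes in the interaction. Under the alternatives run, no called value of a member or of INHBA-AS1 changed direction. Nor did that of another pathway gene in a comparison where it was among the 3 highest or 3 lowest called. Other values of named genes, and those of the 5 profiles nearest to INHBA, were not checked under the alternatives. INHBA ranged over the alternatives from 4.09 to 4.41 on induction in vector cells and from -3.79 to -3.43 in the interaction. The longest transcript in place of all exons moved levels per kilobase, from 0.224 to 0.307 for INHBA in vector EtOH. The labels number the replicates alike in each group. Of 18 pairs with the same number, 13 had deviations that correlated positively and 7 at over 0.1 (r from -0.26 to 0.47, median 0.09, against a median of -0.05 for different numbers), so not every pair did and the numbers were not taken as pairs. With the replicate number as a block, FST (1.02) and SMAD3 (0.34) were not called on induction in vector cells and ACVR1 (-0.38) was, so that 4 members were called, and 1 in the interaction. Low counts limit FST, and INHBB could not be assessed.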
